A study of Mus musculus with 76 samples.

Results

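The genes described here are 44 members of the Wnt signalling system, chosen by name out of 38924 genes in a table. The table holds estimated counts from mouse embryonic stem cell-derived neural cultures. They are 19 Wnt ligands, 10 Frizzled receptors, the LRP co-receptors Lrp5 and Lrp6, 3 R-spondins, 9 secreted antagonists of the Dkk, Sfrp and Wif families, and Axin2. The list was drawn up by gene name and function, with earlier results of these data known. All 44 were found in the table by their Ensembl identifiers. Levels are given in CPM, a gene's count per 1000000 counts of its library.

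Wnt ligands are lipid-modified secreted proteins that bind Frizzled receptors. Together with Lrp5 or Lrp6 they stabilise beta-catenin, which enters the nucleus and acts with TCF and LEF factors on target genes such as Axin2. R-spondins remove the ubiquitin ligases that clear Frizzled receptors and so raise the response. Sfrp proteins, Frzb and Wif1 bind ligands outside the cell, whereas Dkk1 and Dkk2 bind the LRP co-receptors, and Dkk3 is a divergent relative. In the neural tube these genes pattern the dorsal and posterior regions, keep progenitors dividing and later take part in axon growth and synapse formation.

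The cultures came from stem cells of 2 inbred mouse strains, WSB/EiJ (WSB) and C57BL/6J (B6), and were sampled at 3 stages: neural progenitor (NPC), neuronal maturation and axon regrowth. At the NPC stage there were 6 libraries each of WSB ID-8, WSB control, B6 ID-8 and B6 control cultures, and at the maturation stage 4 libraries of each. The 30 axon-stage libraries formed 8 groups: ID-8 and control cultures of each strain, with axons cut (axotomised) or left uncut, at 4 libraries a group except 3 for WSB ID-8 uncut and 3 for B6 ID-8 cut. ID-8 is a small-molecule inhibitor of Dyrk1a, a protein kinase. Each strain was labelled as a whole and no separate stem cell line or clone was named, so a strain difference cannot be told apart from a difference between cell lines. The labels do not say whether the libraries of a group came from separately grown cultures, so p-values measure the spread between these libraries, which may be partly technical.

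The 70 libraries held 20.4 to 131.5 counts each in units of 1000000, with a median of 37.4. By the deposited table's own batch column, NPC replicates 1 to 3 of every group were in the first library batch. Replicates 4 to 6 were in the second, as were most axon libraries, and the maturation libraries were in a batch of their own. The remaining 4 axon libraries, all WSB, were in a batch that held no B6 library. They were replicate 3 of the WSB ID-8 uncut group and replicate 4 of the other WSB axon groups. All 8 listed neural progenitor markers averaged 1 CPM or more in every NPC group, and all 8 neuron markers did so in every group of all 3 stages. Pluripotency markers were still present in NPC cultures, with median summed levels of 280 CPM in WSB ID-8, 51.1 CPM in WSB control, 1712 CPM in B6 ID-8 and 700 CPM in B6 control libraries. RNA came from whole cultures, so fewer cells of a type and less RNA per cell cannot be told apart.

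Most of the genes were present throughout. A group mean of at least 1 CPM was reached in all 16 groups by 25 of the 44, and in no group by Wnt8b, Wnt9b and Wnt10b. Per kilobase of annotated exon, Wnt7b was the ligand with the highest level in NPC controls, at 28.4 CPM per kb in WSB and 16.9 CPM per kb in B6 cultures. Wnt7b and its close relative Wnt7a are ligands of forebrain progenitors. Wnt5b, a ligand known mainly for signalling without beta-catenin, led the ligands per kb in maturation controls, at 9.31 CPM per kb in WSB and 8.58 CPM per kb in B6 cultures.

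Among receptors the order also differed by stage. In NPC controls Fzd2 (25.1 CPM per kb) and Fzd7 (21.8 CPM per kb) stood highest in WSB cultures, and Fzd7 (23.3 CPM per kb) and Fzd2 (16.0 CPM per kb) in B6 cultures. Fzd1 led in maturation controls, at 16.6 CPM per kb in WSB and 15.7 CPM per kb in B6 cultures, and in uncut axon controls, at 20.6 CPM per kb in WSB and 18.6 CPM per kb in B6 cultures. Of the antagonists, Sfrp2 was highest per kb in NPC controls, at 37.4 CPM per kb in WSB and 51.1 CPM per kb in B6 cultures. Dkk3 took that place in maturation controls, with 58.4 CPM per kb in WSB and 29.2 CPM per kb in B6 cultures, and in uncut axon controls, with 26.4 CPM per kb in WSB and 28.0 CPM per kb in B6 cultures.

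**Figure D1:**
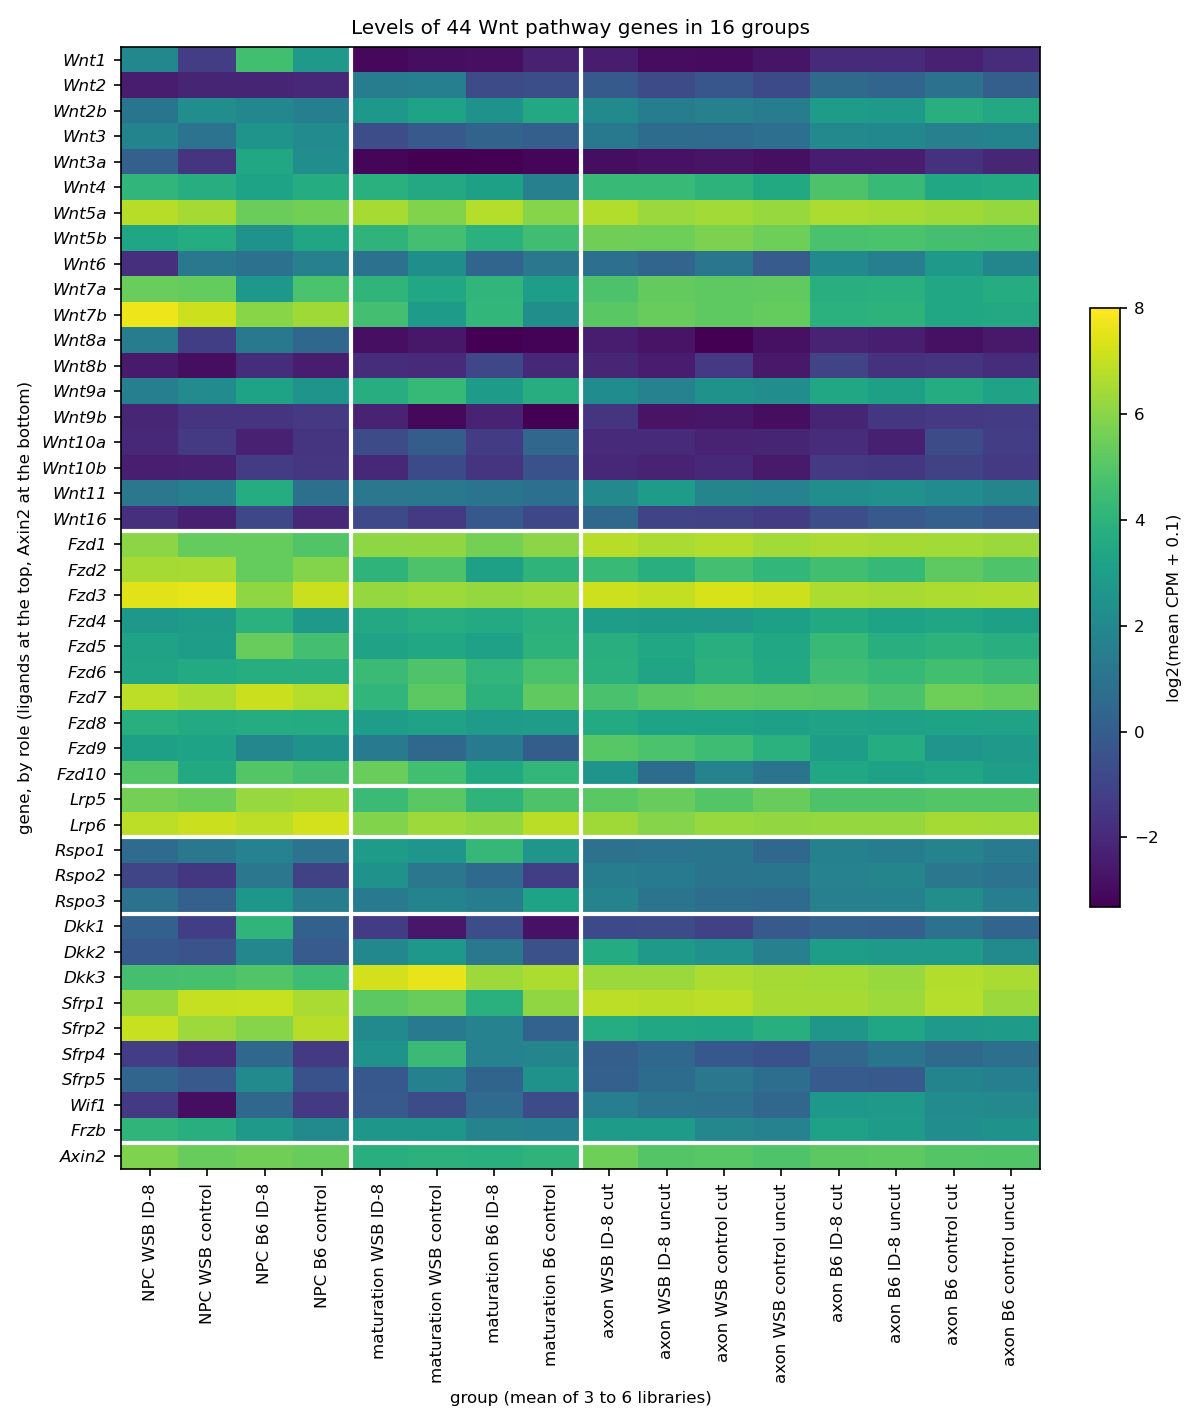
Mean levels of the 44 genes (rows, by role) in the 16 groups (columns, by stage), as log2(mean CPM + 0.1) over 3 to 6 libraries. Wnt1, Wnt3a and Wnt8a were highest in the NPC columns, Dkk3 was highest in the WSB maturation columns, and Wnt8b, Wnt9b and Wnt10b were dark throughout.

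Differences below are log2 ratios ± standard error from edgeR's quasi-likelihood test, fitted per stage over all genes that passed a filter on low counts. A gene is called when its Benjamini-Hochberg adjusted p over all those genes is under 0.05. At the NPC stage Wnt2 and Wnt8b were filtered out and 42 of the genes were tested, at the maturation stage 39 (without Wnt1, Wnt3a, Wnt8a, Wnt8b and Wnt9b), and at the axon stage 41 (without Wnt1, Wnt3a and Wnt8a).

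In NPC controls the ligands Wnt1, Wnt3a and Wnt8a were lower and Wnt5a and Wnt7b higher in WSB than in B6 cultures, 5 of 17 ligands tested. WSB against B6 gave 12 calls among 42 genes, 5 higher and 7 lower. That is 28.6%, against 45.0% of all genes tested (20.0% higher and 25.0% lower), so calls were no more frequent among these genes than in the whole table. Their median difference was -0.07, against 0.00 over all genes.

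Wnt1, which patterns the midbrain and dorsal neural tube, had 0.204, 0.259 and 0.52 CPM (lowest, median and highest of 6) in WSB control libraries, against 0.787, 2.14 and 28.7 CPM in B6 control libraries. Every WSB library lay below every B6 library, and the highest B6 value was replicate 1 alone. The log2 difference was -3.95 ± 1.08 (edgeR adjusted p = 0.00554), and -2.83 ± 0.93 without that library. Wnt3a, a ligand of the dorsal midline and tail bud, had 0.057, 0.205 and 0.514 CPM in WSB and 0.656, 1.47 and 19.6 CPM in B6 controls. Its log2 difference was -3.98 ± 1.00 (adjusted p = 0.00294), and -2.74 ± 0.82 without the same B6 library. Wnt8a, a primitive streak ligand, had 0.12, 0.284 and 0.775 CPM in WSB and 0.546, 1.43 and 1.66 CPM in B6 controls, and its groups overlapped (-2.07 ± 0.61, adjusted p = 0.00935). In the first batch the differences of Wnt1, Wnt3a and Wnt8a were -5.30, -5.23 and -2.68, all called. In the second batch they were -1.88, -2.07 and -1.58, none called.

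Receptors and antagonists differed between the strains too. Fzd5, a receptor of the anterior neural plate and eye field, had 6.08, 8.49 and 8.85 CPM in WSB and 12.6, 23.8 and 36.3 CPM in B6 controls, with no overlap. Its difference of -1.56 ± 0.27 (adjusted p = 9.43e-05) was called in the first batch (-1.43) and in the second (-1.71). Frzb, a secreted Frizzled-related antagonist, had 7.86, 12.1 and 21.3 CPM in WSB and 3.02, 3.96 and 5.46 CPM in B6 controls (1.77 ± 0.46, adjusted p = 0.0037). All 6 WSB libraries exceeded all 6 B6 libraries, though within the second batch alone the gene was not called (2.08, adjusted p = 0.124). Further calls were the ligands Wnt5a (0.93) and Wnt7b (0.85) and the receptors Fzd2 (0.73) and Fzd9 (0.86), which were higher in WSB cultures, and Lrp5 (-0.86), Dkk1 (-1.70) and Wif1 (-3.0), which were lower. Within the first batch 13 of the 42 genes were called, against 24.4% of all genes, and within the second 3 of 41, against 16.3% of all genes. Summed pluripotency markers were 38.5 to 72.4 CPM in WSB and 439 to 1238 CPM in B6 controls, with 7 and 8 of 8 listed genes averaging at least 1 CPM. Oligodendrocyte-lineage markers summed to 41.6 to 59.9 CPM in WSB and 65.2 to 88.9 CPM in B6 controls, with 4 of 6 genes at that level in each. These were the 2 of 13 marker lists whose sums did not overlap, and their part was not tested.

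Under ID-8 most secreted antagonists were lower in WSB than in B6 progenitors. WSB ID-8 against B6 ID-8 gave 27 calls among the 42 genes, 11 higher and 16 lower, against 66.7% of all genes (32.7% higher and 34.0% lower). Secreted antagonists were called lower for 6 of 9 (Dkk1, Dkk2, Sfrp1, Sfrp4, Sfrp5 and Wif1) and higher for 2 (Sfrp2 and Frzb). Summed over all 9, levels were 133 to 350 CPM in WSB ID-8 and 204 to 290 CPM in B6 ID-8 libraries, and overlapped. Dkk1 had 0.552, 0.835 and 1.87 CPM in WSB ID-8 and 4.68, 18.1 and 25.5 CPM in B6 ID-8 libraries, a difference of -4.06 ± 0.48 (edgeR adjusted p = 4.83e-07). Wnt7a was higher in WSB ID-8 cultures (2.71 ± 0.41, adjusted p = 7.19e-06), as were Wnt5a (1.39), Fzd9 (1.24) and Fzd2 (1.12), while Wnt11 (-2.60), Fzd5 (-2.19) and Fzd4 (-1.20) were lower. All 8 of these genes were called within each batch as well, where 25 of 42 genes passed in the first batch, against 41.1% of all genes, and 23 of 41 in the second, against 55.4% of all genes.

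In this comparison the summed levels of 7 of the 13 marker lists did not overlap. Endoderm markers summed to 11.6 to 53.6 CPM in WSB ID-8 and 57.1 to 329 CPM in B6 ID-8 libraries, with 5 and 7 of 7 genes averaging at least 1 CPM. Pluripotency markers summed to 78.4 to 438 CPM in WSB and 967 to 2283 CPM in B6 ID-8 libraries, with all 8 genes at that level in each, and neuron markers to 2492 to 4652 CPM in WSB and 277 to 1875 CPM in B6, also with all 8. Astrocyte markers were at 23.9 to 69.7 CPM in WSB and 138 to 247 CPM in B6 ID-8 libraries (3 of 6 genes in each), and oligodendrocyte-lineage markers at 35.7 to 45.9 CPM in WSB and 86.4 to 194 CPM in B6 (4 of 6 in each). Endothelial markers were at 7.84 to 19.2 CPM in WSB and 47.6 to 146 CPM in B6 ID-8 libraries (4 of 5 in each), and microglia markers at 1.69 to 6.43 CPM in WSB and 6.83 to 16.2 CPM in B6 (2 of 5 in each, with Cx3cr1 at 0 in WSB). Their part in the antagonist differences was not tested.

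With ID-8, most secreted antagonists were called higher in B6 progenitors. Against B6 control libraries, 18 of 42 genes were called, 11 higher and 7 lower, where 40.4% of all genes were called (18.4% higher and 22.0% lower). Of the 9 secreted antagonists 6 were called higher and Sfrp2 lower, with a median difference of 2.10, against -0.04 over all genes. Summed over all 9, levels were 204 to 290 CPM in B6 ID-8 and 158 to 348 CPM in B6 control libraries, and overlapped. Ligands were split, with Wnt11 and Wnt16 higher and Wnt5b and Wnt7a lower, and so were Frizzled receptors, with Fzd4 and Fzd5 higher and Fzd2, Fzd3 and Fzd9 lower. The co-receptor Lrp6 was called lower as well, by a small difference (-0.27).

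Dkk1, which blocks the LRP co-receptors and is required for head formation, had 4.68, 18.1 and 25.5 CPM in B6 ID-8 and 0.289, 1.04 and 1.75 CPM in B6 control libraries. The lowest ID-8 library exceeded the highest control library, and the difference was 4.10 ± 0.49 (edgeR adjusted p = 4.31e-06). Wnt11, a ligand of cell movements in gastrulation, had 4.77, 11.4 and 22.3 CPM in ID-8 and 0.656, 1.91 and 2.56 CPM in control libraries, again with no overlap (3.02 ± 0.39, adjusted p = 9.34e-06). Sfrp5 had 1.23, 4.21 and 7.51 CPM in ID-8 and 0.0787, 0.509 and 1.47 CPM in control libraries, and 1 ID-8 library fell within the control range (2.79 ± 0.49). Fzd4, a receptor that also binds the ligand Norrin, had 9.12, 15.8 and 20.1 CPM in ID-8 and 5.03, 6.82 and 8.60 CPM in control libraries (1.25 ± 0.22). These 4 genes were called in each batch, with differences of 3.80 and 4.53 for Dkk1, 2.87 and 3.22 for Wnt11, 2.84 and 2.77 for Sfrp5, and 1.09 and 1.41 for Fzd4 in the first and second batch.

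Wnt7a went the other way, with 1.56, 4.39 and 17.5 CPM in B6 ID-8 and 11.2, 25.0 and 50.1 CPM in B6 control libraries (-2.08 ± 0.40, edgeR adjusted p = 0.000417). It was called within the second batch (-2.50) and not within the first (-1.69, adjusted p = 0.127). In the first batch libraries with the same replicate number deviated together, and a fit that paired them called Wnt7a (-1.98, adjusted p = 0.00534). Pairing raised the first-batch count from 5 to 12 of the 42 genes, and the share of all genes called was 16.7% with pairing and 7.98% without it. Within the second batch 17 of 41 genes were called, against 22.7% of all genes. Among antagonists, Sfrp4 (2.40), Dkk2 (2.10) and Wif1 (2.18) were also higher with ID-8, each at group means under 4 CPM. The R-spondin Rspo2 was higher too (2.54), and 7.78 CPM in replicate 1 of the ID-8 group stood above its other 5 libraries at 0.57 to 1.75 CPM.

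Marker sums of 3 of 13 lists, endoderm, trophoblast and astrocyte, did not overlap in this comparison. The mesenchyme, pluripotency and neuron sums given here overlapped between the groups. Endoderm markers summed to 57.1 to 329 CPM in B6 ID-8 libraries, where all 7 listed genes averaged at least 1 CPM, against 23.2 to 42.8 CPM in B6 control libraries, where 5 did. Mesenchyme markers summed to 138 to 588 CPM with ID-8 and 94.7 to 230 CPM in controls, with all 9 genes detected at that level in each. Pluripotency markers summed to 967 to 2283 CPM with ID-8 and 439 to 1238 CPM in controls, and neuron markers to 277 to 1875 CPM with ID-8 and 1264 to 3747 CPM in controls. Trophoblast markers were lower, at 3.32 to 38.9 CPM with ID-8 and 64.8 to 372 CPM in controls. Astrocyte markers summed to 138 to 247 CPM with ID-8 and 41.0 to 74.8 CPM in controls, with 3 of 6 genes averaging at least 1 CPM in each. None of the genes on these 6 lists was at 0 throughout a group, and their part in the Wnt gene differences was not tested.

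Other genes of the pathway were called in B6 progenitors as well, where 40.4% of all genes were called (18.4% higher and 22.0% lower). Of 5 genes for ligand modification and release, 4 were called higher with ID-8, among them the glypican Gpc3 (1.24 ± 0.20) and Porcn (0.78), which attaches the lipid to Wnt proteins. Antagonists outside the 44 genes were called higher for 3 of 7 tested, with Cer1 at 6.24 ± 0.92 and Sostdc1 at 3.62 ± 0.64. Of 15 cytoplasmic components 8 were called lower and none higher, for example Apc (-0.73) and Gsk3b (-0.68), both parts of the complex that degrades beta-catenin. Target genes were called higher for 6 of 15 and lower for 1, led by Lef1 (2.37 ± 0.40) and Bambi (1.24 ± 0.22). Axin2, the target among the 44, was not called (0.19 ± 0.25, adjusted p = 0.568). Planar cell polarity genes were called lower for 6 of 11 and higher for 1, with Prickle2 at -0.93 and Prickle1 at -0.60, and nuclear factors higher for 3 of 12 and lower for 6.

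In WSB progenitors with ID-8, Wnt1 and Wnt8a were higher and Wnt6 lower. WSB ID-8 against WSB control gave 8 calls among 42 genes, 6 higher and 2 lower, against 9.57% of all genes (4.71% higher and 4.86% lower). Wnt1 had 1.19, 2.43 and 11.1 CPM in WSB ID-8 and 0.204, 0.259 and 0.52 CPM in WSB control libraries, without overlap (4.06 ± 1.07, edgeR adjusted p = 0.0196). The highest ID-8 value was replicate 4 alone, and without it the gene was not called (3.14, adjusted p = 0.0584), nor was it without control replicate 2 (3.88, adjusted p = 0.0541). Without control replicate 5 the difference was 4.68. Wnt8a had 0.362, 2.84 and 4.61 CPM with ID-8 and 0.12, 0.284 and 0.775 CPM in controls (3.13 ± 0.62, adjusted p = 0.00297), and 4 of 6 ID-8 libraries exceeded all controls. Wnt6, a ligand of surface epithelia, had 0.114, 0.165 and 0.321 CPM with ID-8 and 0.078, 1.69 and 5.63 CPM in controls. Its difference was -3.48 ± 0.69 (adjusted p = 0.00275), and 1 control library lay below all ID-8 libraries. Without control replicate 6 the difference was -2.83.

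Dkk1 had 0.552, 0.835 and 1.87 CPM in WSB ID-8 and 0.114, 0.222 and 0.645 CPM in WSB control libraries (1.74 ± 0.51, edgeR adjusted p = 0.0337), and its call was lost in 6 of the fits without 1 library. Fzd10, a receptor of the dorsal neural tube, had 16.8, 24.1 and 62.2 CPM with ID-8 and 6.88, 10.5 and 18.0 CPM in controls (1.55 ± 0.50, adjusted p = 0.0498). Its call was lost in 8 of the fits without 1 library, with adjusted p of 0.0676 to 0.211, and in the fit without the batch term (adjusted p = 0.137). Without ID-8 replicate 4 the difference was 0.96. Fzd1 (0.72) and Wif1 (2.81, with control libraries at 0 to 0.078 CPM) were also called higher and Sfrp1 (-0.73) lower. Within the first batch 2 genes were called, Dkk1 (2.86) and Wnt6 (-3.02), against 0.961% of all genes. Pairing by replicate number called Wnt6 (-3.09) and Sfrp2 (0.84) but not Dkk1 (2.77, adjusted p = 0.0616), against 1.07% of all genes. Within the second batch none of 41 was called, where 2 genes of the whole table were (0.0117%). Of the 13 marker lists 3 had sums that did not overlap. Pluripotency markers summed to 78.4 to 438 CPM in WSB ID-8 and 38.5 to 72.4 CPM in WSB control libraries, with 8 and 7 of 8 genes averaging at least 1 CPM. Trophoblast markers summed to 0.808 to 5.42 CPM with ID-8 and 26.9 to 118.4 CPM in controls, with 1 and 4 of 5 genes at that level, and endothelial markers to 7.84 to 19.2 CPM with ID-8 and 25.7 to 71.4 CPM in controls, with 4 and 3 of 5. Summed roof plate markers, which overlapped, were 108.4 to 171 CPM in WSB ID-8 libraries and 48.9 to 127 CPM in WSB control libraries, with 6 and 4 of the 10 listed genes averaging at least 1 CPM, and the part of these 4 lists was not tested. Pathway genes outside the 44 included Notum, a secreted enzyme that strips the lipid from Wnt proteins (2.80 ± 0.45), and Lef1 (1.99 ± 0.40), the 2 target genes called out of 15. Prickle2 and Celsr1 (-0.87) were the 2 planar cell polarity genes called out of 11, both lower. Of all genes 9.57% were called in this comparison. Axin2 was again not called (0.43 ± 0.25, adjusted p = 0.313).

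**Figure D2:**
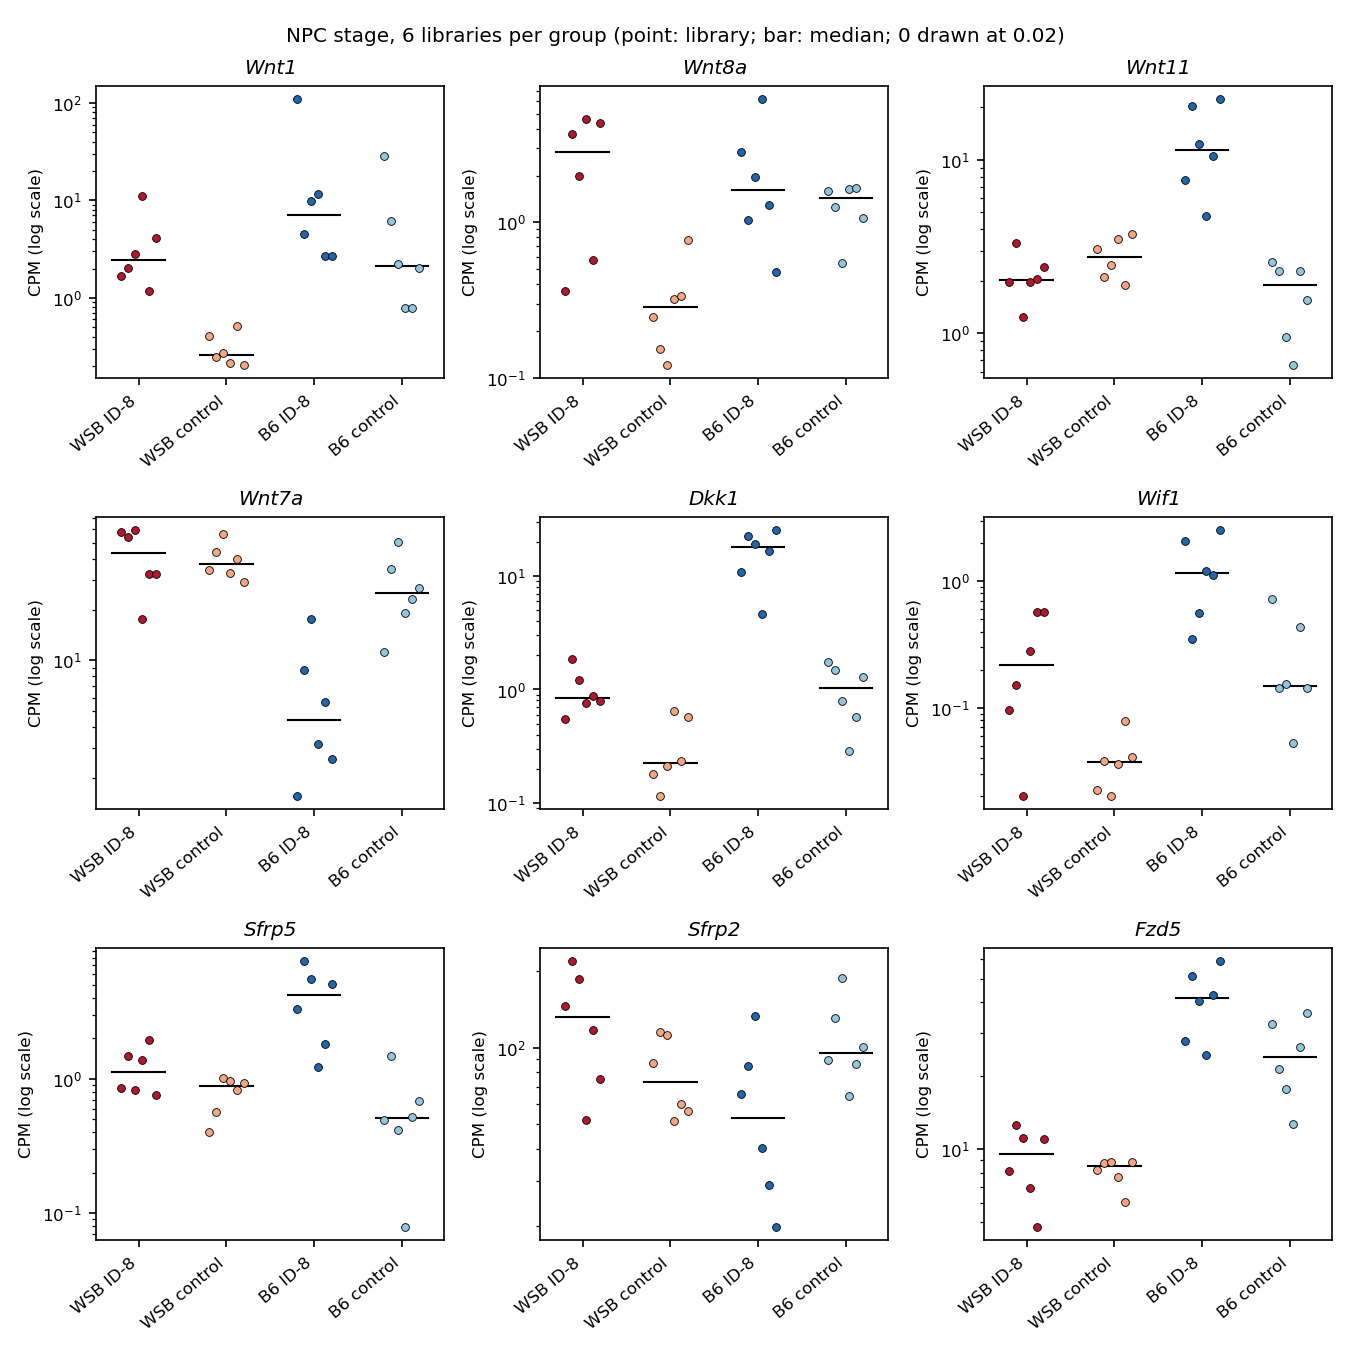
CPM of 9 genes in each NPC library on log axes (a point is a library, a bar the median of 6, and 0 is drawn at 0.02). B6 ID-8 points stood above all other groups' medians for Dkk1 and Wnt11, and WSB control points stood below the other groups for Wnt1.

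The ID-8 response itself differed between strains for 5 of 42 genes, 2 with a higher and 3 with a lower response in WSB, against 3.19% of all genes (1.44% higher and 1.76% lower). Wnt11 had 1.24, 2.02 and 3.32 CPM in WSB ID-8 and 1.90, 2.77 and 3.75 CPM in WSB control libraries, which overlapped, whereas in B6 the groups given above did not. The WSB response minus the B6 response was -3.36 ± 0.53 on the log2 scale (edgeR adjusted p = 0.00359). Wnt7a had 17.5, 43.3 and 59.1 CPM in WSB ID-8 and 29.1, 37.1 and 56.4 CPM in WSB control libraries, and its response difference was 2.12 ± 0.54 (adjusted p = 0.0358). That call was lost in 15 of the 24 fits without 1 library, with adjusted p of 0.0508 to 0.0681.

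Sfrp2 had 51.8, 132 and 219 CPM in WSB ID-8 against 51.6, 73.7 and 115.5 CPM in WSB control libraries, and 19.7, 53.1 and 133 CPM in B6 ID-8 against 64.5, 95.2 and 188 CPM in B6 control libraries. The ID-8 median was the higher of the pair in WSB and the lower in B6, with overlapping groups in each, and the response difference was 1.63 ± 0.34 (edgeR adjusted p = 0.0126). Sfrp1 showed the opposite arrangement, called lower with ID-8 in WSB (-0.73) and higher in B6 (0.56), and its response difference was -1.29 ± 0.31 (adjusted p = 0.0256). Fzd4 had 4.18, 6.84 and 7.75 CPM in WSB ID-8 and 4.44, 6.87 and 11.9 CPM in WSB control libraries, and its response difference was -1.44 ± 0.31 (adjusted p = 0.0153). The signs of all 5 response differences were the same in each batch, but within a single batch no gene of the whole table passed. Pairing by replicate number in the first batch called Sfrp2, the 1 of 42 genes that passed, among 17 genes of the whole table (0.0984%). Without the batch term Sfrp2 (1.49, adjusted p = 0.180) and Wnt7a (2.10, adjusted p = 0.0959) were not called.

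Wnt11 and Wnt7a, the ligands with opposed response differences, are shown by their promoters (250 bases before to 50 after the RefSeq start, mouse build GRCm38.p6). The TCF and LEF core CTTTGAT, or ATCAAAG on the other strand, was searched on both strands, and 1225 of 32851 RefSeq promoter windows (3.73%) held it. Among the 44 genes 29 had a window, and 2 of their 32 windows held the core: 1 of Wnt11, with the core marked in capitals at position 200 of the window, and 1 of Wnt5b. The Wnt7a window held no match.
Wnt11, chr7:98834862-98835161, plus strand: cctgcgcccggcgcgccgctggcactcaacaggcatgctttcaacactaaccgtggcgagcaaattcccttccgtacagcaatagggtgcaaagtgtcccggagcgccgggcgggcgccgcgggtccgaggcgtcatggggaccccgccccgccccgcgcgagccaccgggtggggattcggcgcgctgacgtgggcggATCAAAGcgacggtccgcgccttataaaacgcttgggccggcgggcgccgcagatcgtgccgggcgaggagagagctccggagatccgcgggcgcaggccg
Wnt7a, chr6:91411304-91411603, minus strand: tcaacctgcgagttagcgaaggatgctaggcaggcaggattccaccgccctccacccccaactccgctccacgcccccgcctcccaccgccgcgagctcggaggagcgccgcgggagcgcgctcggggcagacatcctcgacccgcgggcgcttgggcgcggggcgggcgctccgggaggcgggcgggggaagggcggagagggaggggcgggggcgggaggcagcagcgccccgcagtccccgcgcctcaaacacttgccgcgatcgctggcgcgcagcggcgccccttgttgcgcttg

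At the maturation stage 5 of 9 secreted antagonists and Rspo2 were called higher in WSB than in B6 controls, and no antagonist lower. WSB against B6 control gave 9 calls among 39 genes, 8 higher and 1 lower, against 14.8% of all genes (7.38% higher and 7.39% lower). The antagonists called higher were Dkk2, Dkk3, Sfrp2, Sfrp4 and Frzb. Summed over all 9, antagonist RNA averaged 277 CPM in WSB and 182 CPM in B6 controls. Dkk3 alone made up 196 CPM in WSB and 98.2 CPM in B6 controls. Sfrp1, not called in this fit, averaged 41.1 CPM in WSB and 69.5 CPM in B6 controls. Dkk2 had 9.65, 6.13, 6.30 and 3.47 CPM in WSB and 0.652, 0.914, 0.536 and 0.336 CPM in B6 controls, well apart (3.37 ± 0.41, edgeR adjusted p = 3.56e-05). Rspo2, an R-spondin needed for limb and neuromuscular development, had 2.38, 2.07, 2.28 and 1.86 CPM in WSB and 0.248, 0.196, 0.328 and 0.537 CPM in B6 controls (2.70 ± 0.35, adjusted p = 6.53e-05).

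Sfrp4 was uneven among WSB controls, at 33.7, 34.3, 6.65 and 8.90 CPM, against 2.42, 4.31, 3.01 and 4.06 CPM in B6 controls (2.59 ± 0.59, edgeR adjusted p = 0.00717). Wnt4, a ligand of several epithelia and the spinal cord floor plate, had 16.4, 16.0, 5.20 and 7.00 CPM in WSB and 2.70, 2.57, 3.07 and 3.48 CPM in B6 controls (1.90 ± 0.38). WSB replicates 1 and 2, which lie on the same side of the experiment division described below, were the high libraries for both genes. Rspo3 was the gene called lower, with 4.37, 5.17, 2.06 and 1.64 CPM in WSB and 8.32, 9.27, 8.82 and 11.0 CPM in B6 controls (-1.51 ± 0.39, adjusted p = 0.0157). It was not called without WSB control replicate 3 (-1.34, adjusted p = 0.0514). Mesenchyme markers summed to 1784 to 4324 CPM in WSB and 654 to 1009 CPM in B6 controls, all 9 listed genes averaging at least 1 CPM in each. Oligodendrocyte-lineage and roof plate markers were also higher and neural crest markers lower in every WSB than in any B6 control, which made 4 of 13 lists, and their part was not tested.

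Of the 16 maturation libraries 8, 2 of each group, carry a shared experiment name in the deposited table, and the other 8 do not. In every group this division separates replicates 1 and 2 from replicates 3 and 4. Libraries on the same side of that division deviated together (r above 0.1) in 40 of 48 pairs. With the division as a block, 14 of 39 genes were called between WSB and B6 controls, against 27.2% of all genes. The 5 genes gained were Wnt6 (1.05) and Wnt7b (0.63), higher in WSB, and Sfrp1 (-0.87), Fzd5 (-0.54) and Lrp6 (-0.47), lower.

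Under ID-8 the strains differed in 8 of 39 genes, 7 higher and 1 lower in WSB, where 17.3% of all genes were called (9.28% higher and 7.97% lower). Rspo2 had 6.43, 7.55, 3.69 and 3.61 CPM in WSB ID-8 and 1.85, 1.14, 1.20 and 1.26 CPM in B6 ID-8 libraries (1.96 ± 0.32, edgeR adjusted p = 0.000477). Fzd10 had 45.2, 69.2, 26.7 and 29.3 CPM in WSB and 8.49, 10.6, 13.3 and 14.6 CPM in B6 ID-8 libraries (1.87 ± 0.34, adjusted p = 0.00128). Rspo1, the gene called lower, had 7.42, 6.68, 6.60 and 9.60 CPM in WSB and 15.2, 11.4, 22.1 and 25.9 CPM in B6 ID-8 libraries (-1.29 ± 0.27, adjusted p = 0.00387). Groups did not overlap for any of these 3. Wnt2 (2.38) and Sfrp1 (1.29) were also called, and each lost its call in 4 of the fits without 1 library. Without B6 ID-8 replicate 1 the Wnt2 difference was 3.04. The experiment block added Wnt9a (0.83), Wnt4 (0.78), Dkk2 (0.81) and Wnt3 (-1.03), giving 12 calls, against 27.4% of all genes. Marker sums of 4 of the 13 lists, astrocyte, mesenchyme, smooth muscle and endothelial, were higher in every WSB ID-8 than in any B6 ID-8 library, and their part was not tested.

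With ID-8, maturing B6 cultures had more Wnt7b, Rspo1 and Rspo2 RNA and less Sfrp1, Sfrp5, Fzd7 and Rspo3 RNA than B6 controls. Of 39 genes 18 were called, 9 higher and 9 lower, against 17.1% of all genes (7.71% higher and 9.41% lower). With the experiment block 24 were called, against 28.4% of all genes. Wnt7b had 11.8, 14.5, 21.3 and 24.1 CPM in B6 ID-8 and 3.91, 4.27, 4.80 and 5.74 CPM in B6 control libraries (1.97 ± 0.30, edgeR adjusted p = 0.000457). Rspo1 had 15.2, 11.4, 22.1 and 25.9 CPM with ID-8 and 6.58, 7.05, 4.98 and 4.80 CPM in controls (1.71 ± 0.28). Rspo2 was higher by 2.10 ± 0.35, and the antagonist Sfrp2 by 1.61 ± 0.33, at 3.75, 4.17, 1.96 and 2.65 CPM with ID-8 and 1.16, 0.671, 1.38 and 1.04 CPM in controls.

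Sfrp1 had 21.1, 16.2, 11.5 and 9.77 CPM in ID-8 and 59.3, 65.1, 73.9 and 79.5 CPM in control libraries (-2.19 ± 0.35, edgeR adjusted p = 0.000663). Fzd7, a receptor of stem and progenitor cells, had 14.5, 17.9, 16.0 and 13.3 CPM with ID-8 and 28.8, 35.8, 40.1 and 44.4 CPM in controls (-1.23 ± 0.21). Sfrp5 had 1.43, 1.65, 0.671 and 0.928 CPM with ID-8 and 5.16, 8.55, 4.47 and 3.69 CPM in controls (-2.17 ± 0.40). Rspo3 had 3.65, 3.07, 1.70 and 1.93 CPM with ID-8 and 8.32, 9.27, 8.82 and 11.0 CPM in controls (-1.80 ± 0.39). All 4 genes were lower in every ID-8 library than in any control. The remaining calls were Dkk1, Dkk2, Fzd9, Wif1 and Wnt4 (higher) and Fzd2, Fzd5, Lrp5, Wnt2b and Wnt10a (lower).

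Smooth muscle markers summed to 227 to 449 CPM in B6 ID-8 libraries, against 2045 to 4589 CPM in B6 control libraries, with 4 of 5 listed genes averaging at least 1 CPM in each. Oligodendrocyte-lineage markers summed to 164 to 287 CPM with ID-8 and 32.1 to 60.1 CPM in controls, with 4 of 6 genes at that level in each. The sums of 6 further lists of the 13 did not overlap, with pluripotency and endoderm markers higher with ID-8 and roof plate, neural crest, endothelial and microglia markers lower. The part of these cell types was not tested. Outside the 44 genes, the glypican Gpc4 (-1.66 ± 0.24) and Wls, which carries Wnt proteins to the surface (-0.81), were the 2 of 4 release genes called, both lower. Of 11 target genes 3 were called higher, including Lef1 (3.21 ± 0.62), and 2 lower, including Ccnd1 (-2.23 ± 0.33). Of all genes 17.1% were called in this comparison. Axin2 did not pass (-0.12 ± 0.28, adjusted p = 0.815).

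Maturing WSB cultures gave 4 calls with ID-8, 2 higher and 2 lower, against 5.89% of all genes (2.86% higher and 3.03% lower). The 4 genes were called in the same direction in B6. Wnt7b had 12.5, 18.8, 26.8 and 39.6 CPM in WSB ID-8 and 5.90, 7.24, 7.22 and 8.48 CPM in WSB control libraries (1.80 ± 0.30, edgeR adjusted p = 0.00258). Rspo2 had 6.43, 7.55, 3.69 and 3.61 CPM with ID-8 and 2.38, 2.07, 2.28 and 1.86 CPM in controls (1.36 ± 0.31, adjusted p = 0.0173), a call lost in 2 of the fits without 1 library (adjusted p = 0.0532 and 0.0592). Sfrp5 had 1.27, 0.793, 0.738 and 0.272 CPM with ID-8 and 2.42, 2.79, 3.83 and 3.25 CPM in controls (-1.95 ± 0.42). Fzd7 had 19.0, 20.3, 10.1 and 20.6 CPM with ID-8 and 41.5, 38.6, 29.9 and 33.0 CPM in controls (-0.98 ± 0.21). None of the 4 overlapped between groups. Gpc4 (-1.68 ± 0.24) and Wls (-0.70) were called lower in WSB as well, and summed smooth muscle markers were 563 to 2410 CPM in WSB ID-8 and 1365 to 3753 CPM in WSB control libraries, with all 5 genes averaging at least 1 CPM. Of the 13 marker lists 4 did not overlap, with pluripotency, astrocyte and oligodendrocyte-lineage sums higher and roof plate sums lower with ID-8, and their part was not tested.

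The experiment block raised the WSB count to 10 of 39 genes, against 14.2% of all genes. The 6 genes gained were Fzd9 (0.99) and Wnt5a (0.69), higher with ID-8, and Sfrp4 (-1.80), Wnt6 (-1.20), Lrp5 (-0.67) and Wnt5b (-0.52), lower. Sfrp4 without the block was at -1.84 (edgeR adjusted p = 0.0718), and with it the adjusted p was 0.00509.

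The response to ID-8 differed between the strains for 1 of 39 genes without the experiment block, Dkk2, which had 5.00, 3.63, 3.80 and 2.59 CPM in WSB ID-8 against the WSB control values above, and 2.45, 3.26, 1.08 and 2.09 CPM in B6 ID-8 against the B6 control values above. Dkk2 thus was called higher with ID-8 in B6 (1.90 ± 0.40), and the WSB response minus the B6 response was -2.61 ± 0.54 (edgeR adjusted p = 0.0456). The call was lost in 14 of the 16 fits without 1 library, with adjusted p up to 0.109. Of all genes 0.46% were called in this test (0.377% higher and 0.0826% lower). With the experiment block 3 genes were called, against 1.91% of all genes, as Sfrp1 (2.11 ± 0.35, adjusted p = 0.00414) and Rspo3 (1.58 ± 0.38, adjusted p = 0.0454) joined Dkk2. Without the block these differences were 2.05 (adjusted p = 0.083) and 1.41 (adjusted p = 0.422).

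**Figure D3:**
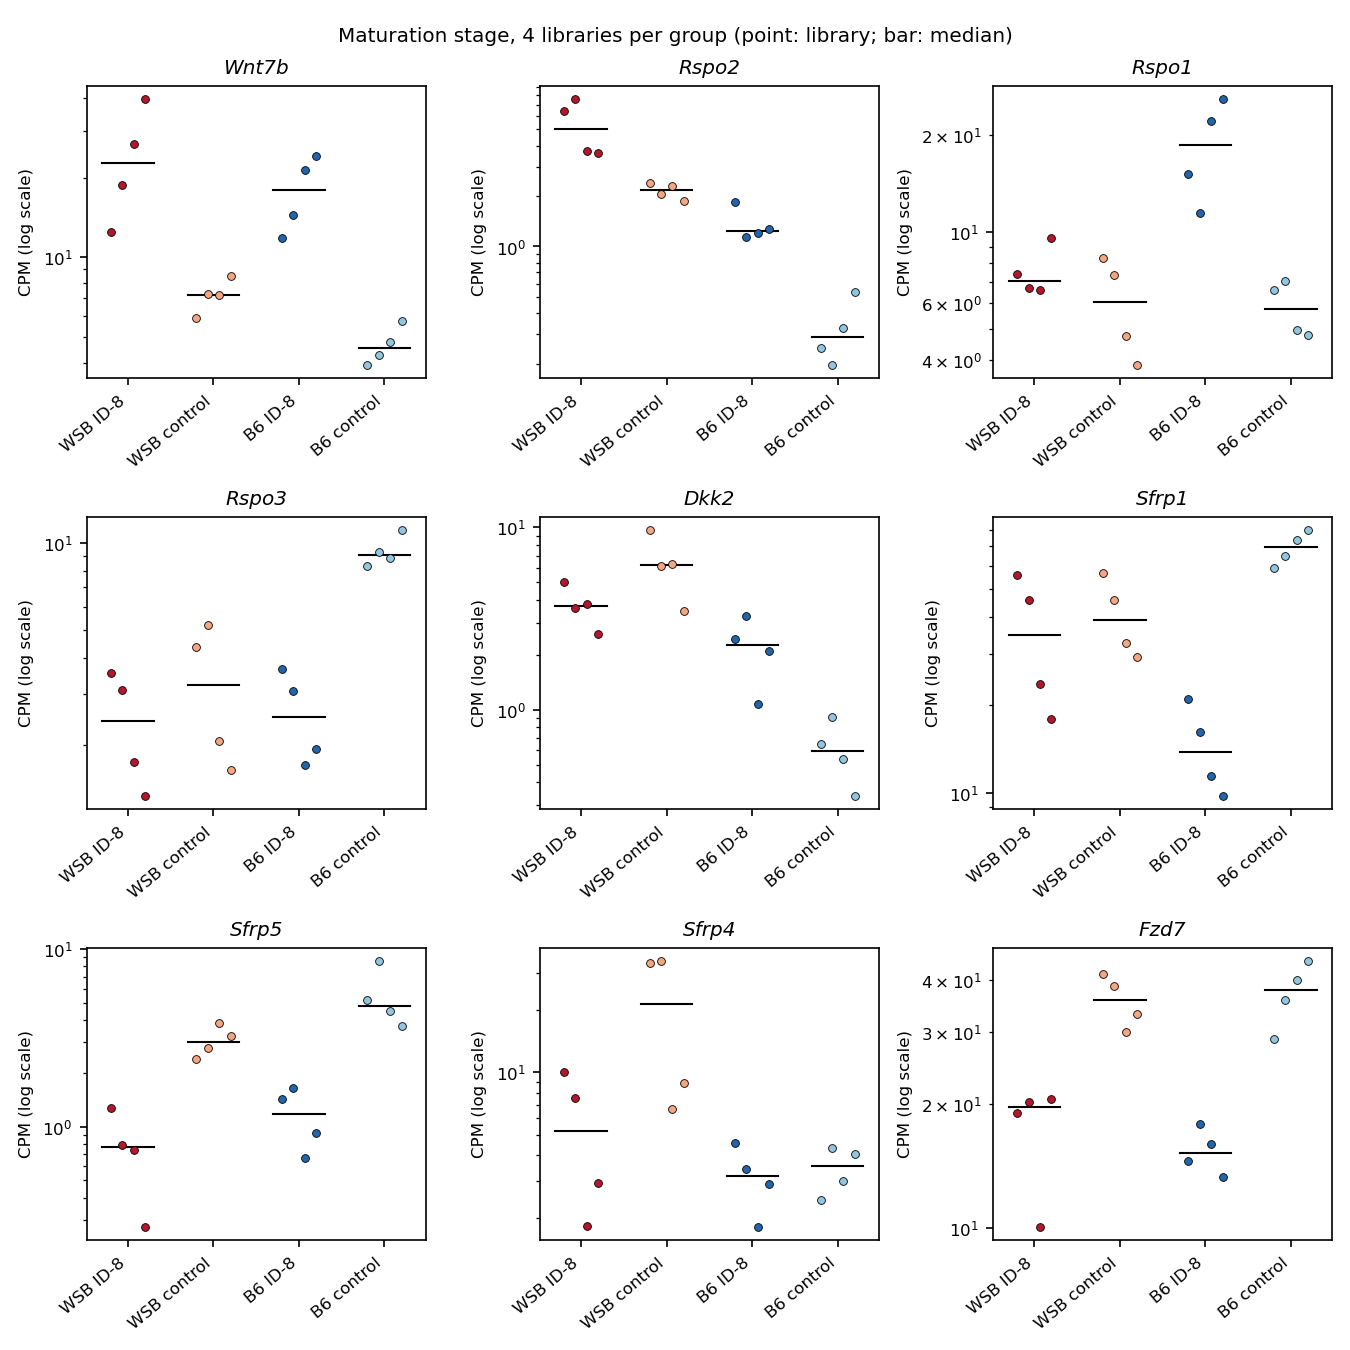
CPM of 9 genes in each maturation library on log axes (a point is a library, a bar the median of 4). ID-8 points stood above their own strain's controls for Wnt7b and Rspo2 and below them for Sfrp5 and Fzd7, and the B6 control points of Dkk2 and Rspo2 were the lowest of all.

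At the axon stage WSB cultures had more Wnt7b and Wnt7a RNA and less Wnt2b RNA than B6 cultures, whether cut or not. In uncut controls WSB against B6 gave 7 calls among 41 genes, 2 higher and 5 lower, against 13.2% of all genes (5.68% higher and 7.56% lower). In cut controls it gave 9 calls, 4 higher and 5 lower, against 16.2% of all genes (7.46% higher and 8.78% lower). Keeping the libraries of the second batch alone, 5 of 43 genes were called in uncut controls, against 10.4% of all genes, and 6 in cut controls, against 13.9% of all genes.

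Wnt7b had 23.5, 45.6, 45.9 and 43.1 CPM in WSB and 10.6, 8.70, 13.0 and 12.5 CPM in B6 uncut controls (1.79 ± 0.23, edgeR adjusted p = 3.59e-05). After cutting it had 29.5, 35.4, 38.7 and 42.1 CPM in WSB and 13.5, 8.72, 9.80 and 12.1 CPM in B6 controls (1.66 ± 0.23). WSB and B6 libraries did not overlap in either state. Wnt7a had 14.3, 45.2, 44.5 and 46.4 CPM in WSB and 9.59, 11.3, 15.9 and 14.2 CPM in B6 uncut controls (1.50 ± 0.35, adjusted p = 0.00596), so WSB replicate 1 lay among the B6 libraries. Wnt2b had 4.03, 1.92, 2.24 and 2.08 CPM in WSB and 14.1, 10.5, 10.3 and 10.7 CPM in B6 uncut controls (-1.95 ± 0.38, adjusted p = 0.00177), without overlap. In cut controls the differences were 1.63 ± 0.35 for Wnt7a and -2.02 ± 0.39 for Wnt2b.

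Fzd10 had 0.569, 2.73, 1.68 and 2.87 CPM in WSB and 12.2, 4.91, 7.16 and 7.49 CPM in B6 uncut controls (-2.13 ± 0.61, edgeR adjusted p = 0.0234), and Wif1 had 0.438, 2.09, 1.62 and 0.79 CPM in WSB and 4.42, 3.04, 4.36 and 4.01 CPM in B6 uncut controls (-1.58 ± 0.43, adjusted p = 0.0158). Neither overlapped, but Fzd10 lost its call in 3 of the fits without 1 library and Wif1 without WSB replicate 1 (-1.25, adjusted p = 0.0596). Sfrp4 (-1.65) was called in uncut controls and lost in 7 such fits, and Wnt6 (-2.28) was the other uncut call. In cut controls Fzd9, a receptor of hippocampal progenitors, was called higher (2.12 ± 0.58, adjusted p = 0.0158), with 15.7, 23.5, 39.0 and 10.3 CPM in WSB and 6.25, 12.2, 2.22 and 2.85 CPM in B6, so 1 library of each strain lay in the other's range. Without B6 replicate 2 the Fzd9 difference was 2.81. Rspo3 was lower (-1.53 ± 0.37). Wnt5b (0.90), Wnt10a (-2.43), Fzd10 (-1.82) and Wif1 (-1.24) completed the cut calls, of which Fzd10 was lost in 6 and Wif1 in 7 fits without 1 library, and Fzd9 in 2. Without the batch term Fzd10 (-1.89, adjusted p = 0.0533) and Sfrp4 (-1.32, adjusted p = 0.126) were not called in uncut controls, nor Fzd10 (-1.58, adjusted p = 0.096) and Wif1 (-1.25, adjusted p = 0.0524) in cut controls. With the second batch alone Wif1 was not called in uncut controls (-1.47, edgeR adjusted p = 0.0578). In cut controls neither Fzd10 (-1.89, adjusted p = 0.0705) nor Wif1 (-1.24, adjusted p = 0.0892) was called in that batch.

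Marker sums of 3 of 13 lists in uncut controls (mesenchyme, endothelial and microglia) and 1 of 13 in cut controls (microglia) did not overlap between strains. Astrocyte markers summed to 1500 to 12478 CPM over WSB and 1689 to 2596 CPM over B6 uncut controls, which overlapped. Mesenchyme markers summed to 146 to 2222 CPM over WSB and 2286 to 7255 CPM over B6. Endothelial markers summed to 4.70 to 20.4 CPM in WSB, with 2 of 5 genes averaging at least 1 CPM, and 22.7 to 175 CPM in B6, with 4 of 5. All 6 astrocyte and all 9 mesenchyme genes reached that level in both strains. Microglia markers were lower in every WSB than in any B6 control of the same state, cut or uncut, and the part of these cells was not tested. Outside the 44 genes, Apcdd1, a membrane antagonist, was higher in WSB uncut controls (1.50 ± 0.31), and Ccnd1 (-2.72 ± 0.48), Gpc4 (-2.15 ± 0.61) and Notum (-1.76 ± 0.57) were lower.

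Cutting the axons gave no call in any of the 4 comparisons of cut with uncut cultures (WSB ID-8, WSB control, B6 ID-8 and B6 control), for these genes or any other, and neither did the comparison of the control cut response between strains (0.0% of 18106 genes in each, edgeR). At an unadjusted p under 0.05, 4 of 41 genes passed in WSB ID-8 cultures, the lowest p being that of Lrp6 (0.43 ± 0.15), against 6.53% of all genes. None passed in the other 3 groups or in the comparison of responses, where 3.96% (WSB control), 0.398% (B6 ID-8), 1.01% (B6 control) and 0.757% (responses) of all genes did. DESeq2 called none of these genes, and 17 to 35 genes of the whole table, in the 5 tests. Rspo3 in B6 controls may serve as an example, with 3.42, 5.68, 5.28 and 4.72 CPM in cut and 2.06, 2.70, 2.83 and 4.01 CPM in uncut libraries, which overlapped (0.71 ± 0.35).

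Without pairing, ID-8 gave no call at the axon stage either, in WSB uncut, WSB cut, B6 uncut or B6 cut cultures or in the comparison of the uncut response between strains (0.0% of 18106 genes in each). At an unadjusted p under 0.05, 4 of 41 genes passed in WSB uncut cultures, against 7.3% of all genes, and 5 in WSB cut cultures, against 7.62%. In B6 cultures 5 passed in the uncut group, against 4.15% of all genes, and 4 in the cut group, against 3.73%, and none passed in the comparison of responses, against 1.22%. By DESeq2 1 gene was called in B6 cut cultures and none of the 41 elsewhere, beside 30 to 121 genes of the whole table. Wnt4 in B6 cut cultures had 16.4, 30.6 and 37.3 CPM with ID-8 and 11.4, 9.01, 11.1 and 12.4 CPM in controls, with no overlap (1.34 ± 0.27, edgeR adjusted p = 0.293). Rspo2 in B6 uncut cultures had 4.03, 3.01, 3.35 and 3.64 CPM with ID-8 and 2.11, 2.05, 1.67 and 1.69 CPM in controls (0.88 ± 0.26, adjusted p = 0.853).

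Axon libraries fell into 4 sets a strain, each sharing a name in the deposited table, and pairing within these sets changed the ID-8 result in both strains. Libraries of a set deviated together in 19 of 21 pairs in WSB and 21 of 21 in B6. In WSB uncut cultures the paired fit called 2 of 41 genes, Fzd9 (1.08 ± 0.20, edgeR adjusted p = 0.0111) and Dkk2 (1.50 ± 0.31, adjusted p = 0.0171), against 3.11% of all genes. In WSB cut cultures it called 4, Dkk2 (1.36 ± 0.28), Frzb (1.13 ± 0.27), Axin2 (0.48 ± 0.12) and Fzd9 (0.73 ± 0.19), against 1.97% of all genes. All 6 of these differences were positive, so higher with ID-8.

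The paired fit called 2 genes in B6 uncut cultures, Sfrp5 (-1.87 ± 0.42, edgeR adjusted p = 0.0324) and Fzd9 (0.85 ± 0.19, adjusted p = 0.033), among 221 genes of the whole table (1.22%). In B6 cut cultures it called 3, Fzd9 (1.21 ± 0.21), Sfrp5 (-2.34 ± 0.44) and Wnt4 (1.20 ± 0.26), among 275 genes (1.52%). Sfrp5 had 0.729, 0.0228, 1.58 and 0.901 CPM in ID-8 and 3.46, 0.102, 4.73 and 3.07 CPM in control uncut B6 libraries, and the second set was low in each. With the pairing, cut against uncut cultures still gave no call among the 41 genes.

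**Figure D4:**
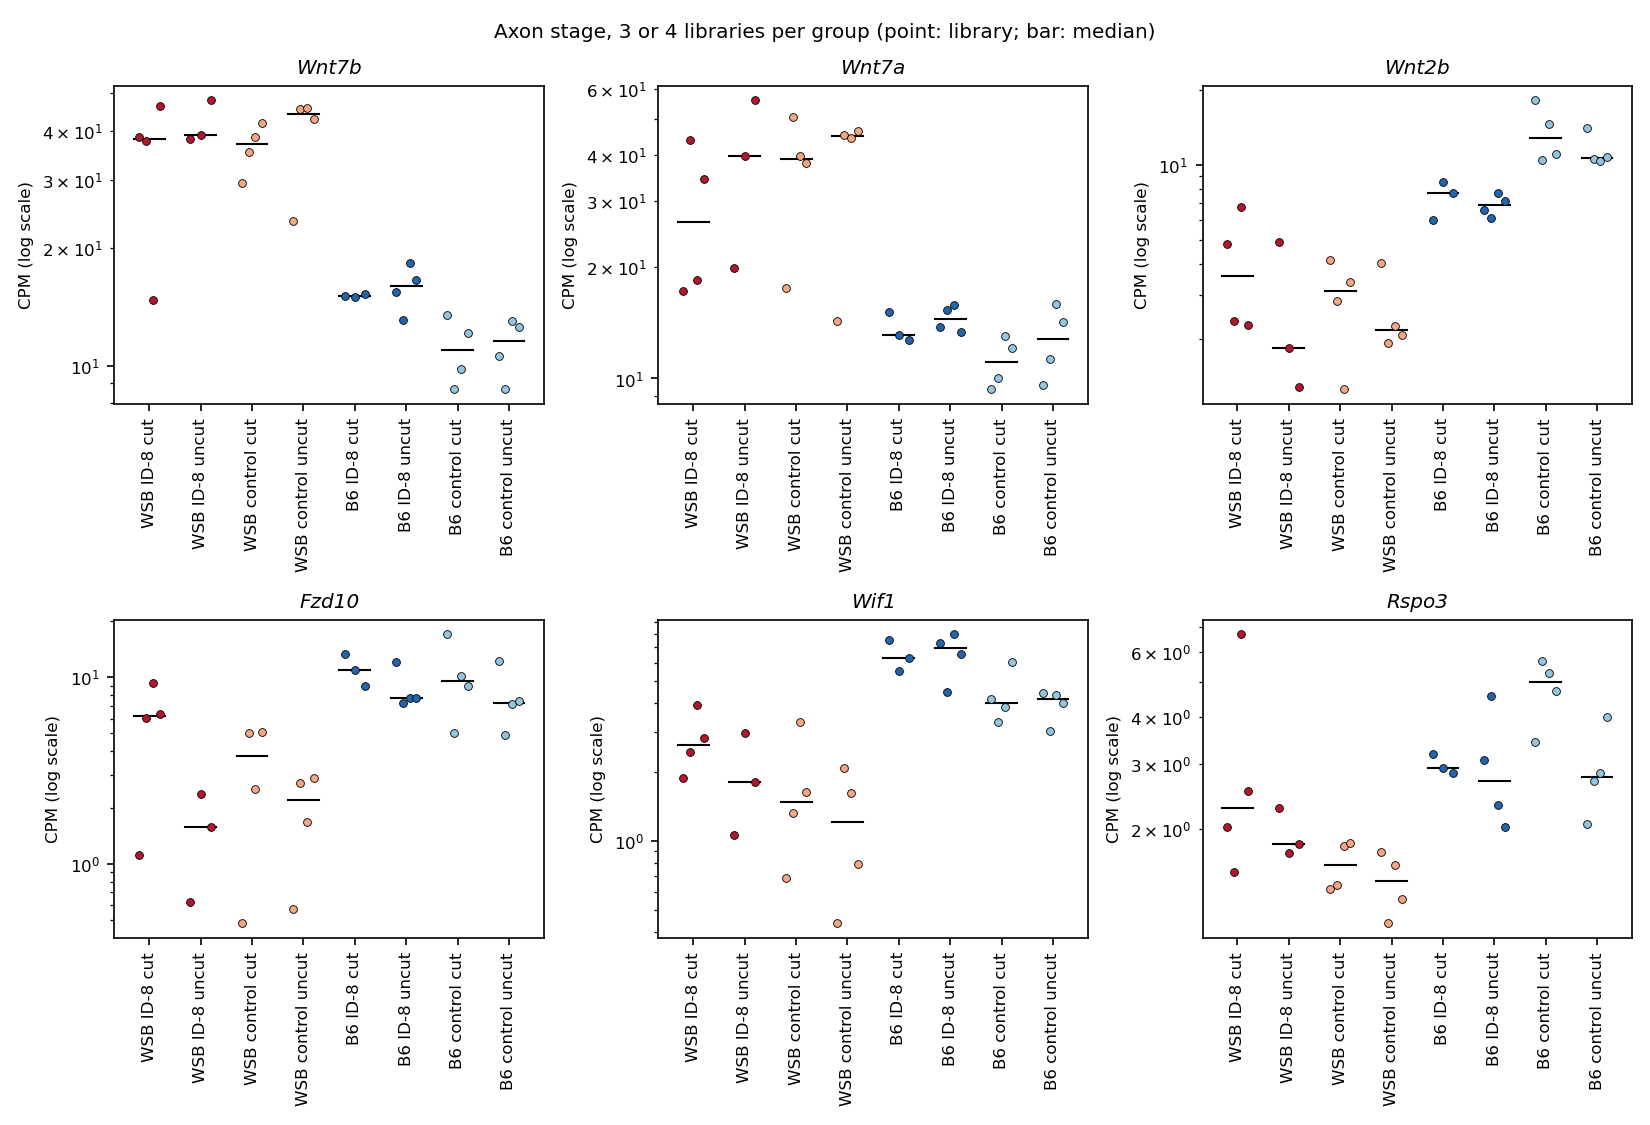
CPM of 6 genes in each axon-stage library on log axes (a point is a library, a bar the median of 3 or 4). WSB control points stood above B6 control points for Wnt7b and below them for Wnt2b, and cut and uncut points overlapped within a strain and treatment.

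Between stages, uncut axon controls were compared with NPC controls in libraries of the second batch alone, so 3 NPC libraries a strain, 3 WSB and 4 B6 axon libraries entered. All 44 genes were tested here. In WSB 16 were called, 6 higher and 10 lower at the axon stage, against 51.1% of all genes (26.1% higher and 25.0% lower). In B6 21 were called, 13 higher and 8 lower, against 57.0% of all genes (28.1% higher and 28.9% lower). Both shares were below that of the whole table.

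Rspo2 averaged 2.20 ± 0.24 CPM at the axon stage and 0.222 ± 0.082 CPM at the NPC stage in WSB (SD, n = 3 each), with a log2 difference of 3.38 ± 0.34, and was also higher in B6 (2.58 ± 0.31). Wif1 averaged 1.38 ± 0.85 CPM at the axon stage and 0.0516 ± 0.023 CPM at the NPC stage in WSB, and 3.96 ± 0.64 CPM at the axon stage and 0.211 ± 0.201 CPM at the NPC stage in B6. Its differences were 4.63 ± 0.74 in WSB and 4.40 ± 0.63 in B6 (5.15 without NPC B6 control replicate 5). Dkk3 was higher by 2.09 ± 0.37 in WSB and 2.02 ± 0.35 in B6. Wnt7b was lower, by the fitted differences of -1.92 ± 0.27 in WSB and -2.70 ± 0.25 in B6, and Sfrp2 by -2.57 ± 0.46 in WSB and -3.40 ± 0.43 in B6. In B6, Wnt1 (-2.84 ± 0.70) and Lrp5 (-1.12 ± 0.27) were lower and Sfrp4 (2.23 ± 0.43) higher, and without NPC B6 control replicate 6 the Wnt1 difference was -2.14. In WSB, Wnt5b was higher (2.24 ± 0.36) and Fzd2 (-1.94 ± 0.40) and Frzb (-2.34 ± 0.65) lower.

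Maturation controls were set against the NPC controls of both batches, 6 a strain. They share no library batch with these, so stage and batch cannot be told apart. Sums of 9 of 13 marker lists in WSB and 10 of 13 in B6 did not overlap between these stages, and their part was not tested. In WSB 34 of 44 genes were called, 17 higher and 17 lower, against 66.8% of all genes (35.3% higher and 31.5% lower). In B6 30 were called, 14 higher and 16 lower, against 66.0% of all genes (33.5% higher and 32.5% lower). Sfrp2 averaged 2.36 ± 0.70 CPM at maturation (SD, n = 4) and 80.4 ± 28.6 CPM at the NPC stage (n = 6) in WSB, and 1.06 ± 0.30 CPM at maturation and 110 ± 44.0 CPM at the NPC stage in B6. Its differences were -5.17 ± 0.58 in WSB and -6.71 ± 0.63 in B6. Wnt7b averaged 7.21 ± 1.06 CPM at maturation and 139 ± 27.3 CPM at the NPC stage in WSB, and 4.68 ± 0.79 CPM at maturation and 82.6 ± 21.6 CPM at the NPC stage in B6. No library of one stage overlapped the other for either gene.

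Sfrp4 was higher at maturation by 6.98 ± 0.55 in WSB and 3.67 ± 0.49 in B6, and Dkk3 by 2.84 ± 0.30 in WSB and 2.15 ± 0.30 in B6. Wnt3a was at 0 in all 4 WSB maturation controls, against 0.057 to 0.514 CPM in WSB NPC controls, and averaged 0.0152 CPM in B6 maturation controls, against 0.656 to 19.6 CPM in B6 NPC controls. Axin2, the feedback target that limits Wnt signalling, averaged 15.4 ± 1.82 CPM at maturation and 41.6 ± 4.83 CPM at the NPC stage in WSB (-1.50 ± 0.31), and 16.3 ± 8.20 CPM at maturation and 41.8 ± 14.2 CPM at the NPC stage in B6 (-1.37 ± 0.31). At the axon stage it was lower than at the NPC stage in WSB (-0.73 ± 0.26, edgeR adjusted p = 0.0185) and not called in B6 (-0.16 ± 0.24, adjusted p = 0.581). Nuclear factors of the pathway were called lower at maturation for 11 of 12 and higher for 1 in both strains. Cytoplasmic components were called lower for 12 of 15 in WSB and 9 of 15 in B6, with 1 higher in each. Of all genes 31.5% were called lower in WSB and 32.5% in B6.

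**Figure D5:**
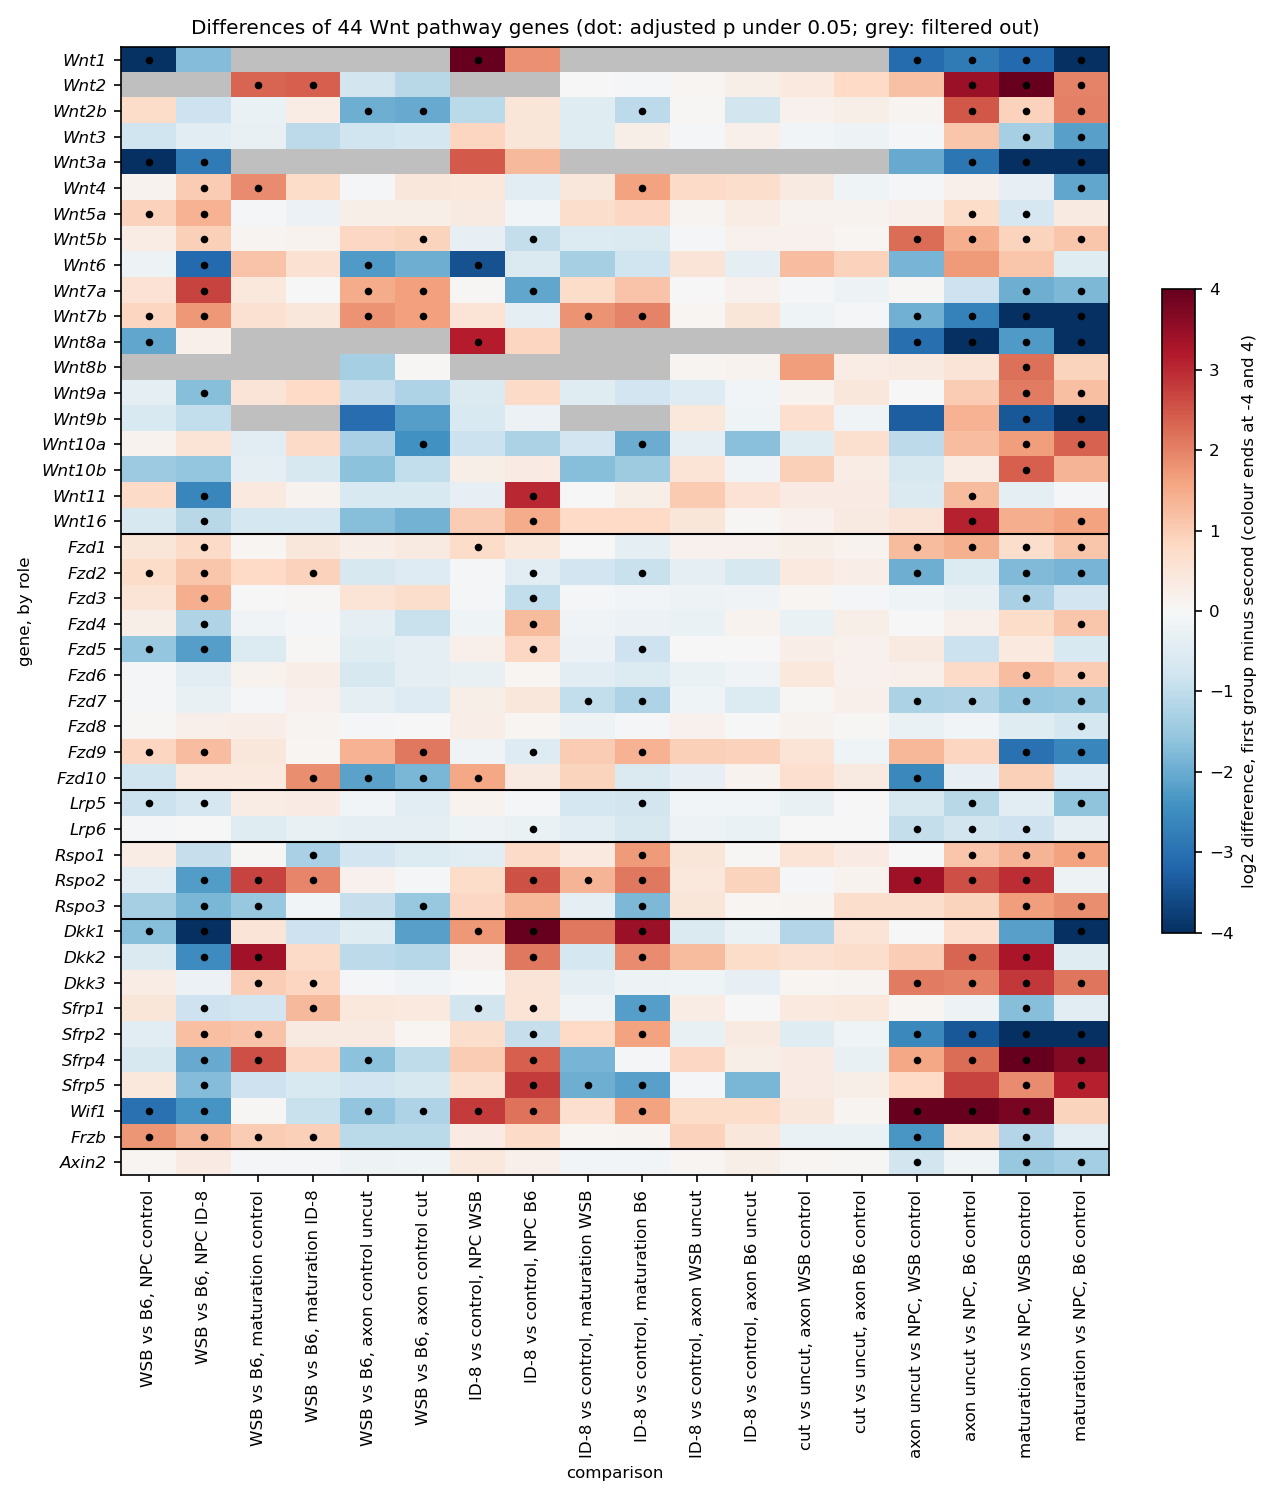
Log2 differences of the 44 genes (rows, by role) in 18 comparisons (columns), with red for higher and blue for lower in the group named first, a dot for an adjusted p under 0.05 and grey for a gene filtered out. Dots were frequent in the NPC and stage columns and in the ID-8 column of maturing B6 cultures, and absent from the ID-8 and cut columns of the axon stage, which show the fits without pairing.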

How the data were processed

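PolyA RNA from 70 libraries (76 sequenced samples, 6 libraries run in 2 runs) was measured by stranded RNA-seq. The values deposited by the authors are expected counts per gene, 9.32% of them not whole. Per the submitters' processing notes Bowtie2, RSEM, featureCounts, limma and build GRCm38 were used, and their versions and order are not given in the sources used here. WSB reads were read against a B6-derived build, and the effect on WSB levels was not tested.

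Runs of a library were summed and counts rounded. CPM uses the plain library total, and levels between genes are per kb of the union of annotated exons. Each stage had its own fit in edgeR 4.0.16 (R 4.3.3; robust quasi-likelihood, TMM, filterByExpr) with the library batch as a term at the NPC and axon stages, and Benjamini-Hochberg adjustment over all genes at 0.05. Fits were tested on simulated data. DESeq2 1.42.0, other scalings, filters and blocks, and fits without 1 library were alternatives. Each library of the compared groups was left out in turn, but for maturation against NPC only the maturation libraries were. Intervals from counting were not used, and a count of 0 allows up to 3 counts.

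Libraries with 1 replicate number deviated together in the first NPC batch (3 of 3 pair correlations above 0.1 in each strain, lowest 0.147 in B6 and 0.264 in WSB), and B6 axon libraries did so by set (21 of 21, lowest 0.709). Axon sets are runs of neighbouring numbers at the start of the sample titles of a strain, which also share a name in the deposited table. The maturation experiment block divides 8 libraries with a shared experiment name there from the other 8.

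The genes and lists were chosen with earlier results of these data known. Genes named with full statistics are called members that differed by 2-fold or more and whose average log2 CPM was not below 0, at most 4 in each direction of a comparison, and up to 2 genes of each pathway list. Others are named without full statistics, and in several comparisons not every called gene is named.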

Additional observations from a re-analysis of the deposited data

Results flagged for a closer look

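Of 129 gene and group combinations examined, 9 held a library far from the others of its group, where chance alone flags about 1 in 20 groups. In B6 control progenitors replicate 1 had 28.7 CPM of Wnt1, against 0.79 to 6.08 CPM in the other libraries, 19.6 CPM of Wnt3a, against 0.66 to 3.25 CPM, and 6.05 CPM of Wnt2b, against 1.38 to 2.84 CPM. In WSB ID-8 progenitors replicate 4 had 11.1 CPM of Wnt1, against 1.19 to 4.14 CPM in the others. At the axon stage replicate 1 of the WSB uncut controls had 23.5 CPM of Wnt7b, against 43.1 to 45.9 CPM, 14.3 CPM of Wnt7a, against 44.5 to 46.4 CPM, and 4.03 CPM of Wnt2b, against 1.92 to 2.24 CPM. Replicate 4 of that group, the only library of it from a different batch, had 26.8 CPM of Sfrp2, against 7.61 to 10.8 CPM. Replicate 1 of the B6 uncut controls had 14.1 CPM of Wnt2b, against 10.3 to 10.7 CPM.

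The ID-8 response, as WSB minus B6 on the log2 scale, differed by test for Wnt11 (-3.36), Sfrp2 (1.63), Fzd4 (-1.44), Sfrp1 (-1.29) and Wnt7a (2.12) in progenitors and for Dkk2 (-2.61) at maturation. The calls of Wnt7a and Dkk2 were lost in most fits without 1 library.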

How the results depend on the processing

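No direction turned. The 95 named gene and comparison pairs gave 505 values under other settings, 456 of them still called, and 852 values without 1 library, 770 still called. Counts of called genes moved by over 1.5 times as follows, and the cause was not tested. In NPC controls WSB against B6 gave 3 in the second batch alone. ID-8 in B6 progenitors gave 5 in the first batch alone, and in WSB progenitors 2 in the first, 0 in the second and 2 with the replicate block. The NPC response difference gave 8 by DESeq2, 3 without the batch term, 0 in either batch alone and 1 with the replicate block. With the experiment block, maturation gave 14 for WSB against B6 controls, 10 for ID-8 in WSB and 3 for the response difference, and DESeq2 gave 8 and 3 for the last pair. At the axon stage WSB against B6 gave 4 in uncut controls without the batch term and 5 in cut controls without the filter. Pairing by axon set gave ID-8 counts of 2 in B6 uncut, 3 in B6 cut, 2 in WSB uncut and 4 in WSB cut cultures, and DESeq2 gave 1 in B6 cut cultures. Pairing changed no other count by that much. Without 1 library the counts ran from 2 to 7 for ID-8 in WSB progenitors, 5 to 8 for WSB against B6 under ID-8 at maturation, 0 to 1 for the maturation response difference, and 4 to 8 in uncut and 4 to 10 in cut axon controls. A batch term for maturation against NPC was not run, because the maturation batch holds no NPC library. Replicate or axon-set blocks for WSB against B6 at the NPC and axon stages were not run either, because sets lie within strains. Genes under 1 CPM rest on few counts.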
